A study of Danio rerio with 9 samples.

Results

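Peaks on unplaced scaffolds were taken from 9 ATAC-seq peak lists of zebrafish (Danio rerio) spermatozoa. ATAC-seq marks open chromatin through the insertion of sequencing adapters by the Tn5 transposase. A peak belonged to the set when its sequence name was neither a chromosome from 1 to 25 nor an alternate contig (a second version of a chromosomal stretch). Of 253847 peaks in all lists, 8398 (3.31%) met this rule. Merging those that overlapped by at least 1 bp gave 3206 regions on 629 scaffolds, of 126838 regions in all. The scaffold names began with KN (567 scaffolds) or KZ (62 scaffolds).

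The injured group was sperm of males 7 days after a cardiac cryoinjury (5 libraries), and the control group was sperm of uninjured males (4 libraries). Each library was made from 100000 spermatozoa. The labels give no strain, transgene, age or pooling of males for either group, nor whether a library stands for 1 male, so the spread that p-values rest on is one between libraries and may be technical. The question was whether open chromatin in sperm differs after the heart has been injured.

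Unplaced scaffolds are stretches of an assembled genome that could not be put on a chromosome. In vertebrate assemblies they often hold repeats, satellite DNA, ribosomal gene arrays and recent gene duplicates, whose copies are hard to tell apart. Zebrafish sperm keep their DNA on histones and lack the protamines that replace histones in mammalian sperm, so their chromatin still carries nucleosomes for Tn5 to cut between. No annotation of the build of the files, GRCz11, was used here. Genes, exons and repeats at the regions below were therefore not analysed, and the sperm label was not checked against marker genes.

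The lists held 15508 to 29622 peaks in the injured and 30126 to 45277 in the control group, without overlap. Reads per library are unknown, so a region without a peak was not detected in that library rather than shown to be closed. Each peak carries the authors' score, used here only to rank peaks within a library, with rank 1 the highest score. No library shared more than 5 identical scaffold peaks with another.

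Scaffold peaks stood far up the ranking in both groups. Control libraries 1 to 4 had 25, 27, 20 and 22 scaffold peaks among their 100 best-ranked peaks. Injured libraries 1 to 5 had 23, 9, 26, 22 and 23. All but injured library 2 thus had 20 or more, and the groups overlapped. The mean over all libraries was 21.9% of the 100 best-ranked peaks (SD 5.302, n = 9), against 3.31% of all peaks. For comparison, chromosome 4, whose long arm is known for its repeats, had 2 to 12 of the 100 best-ranked peaks, and alternate contigs had 1 to 13. Chromosome 4 held 7.13% to 10.1% of all peaks of a library. Among the 1000 best-ranked it had 123 to 233 peaks and the scaffolds 95 to 128, with chromosome 4 higher in every library. Chromosome 4 also has more peaks in all. As a share of each set's own peaks, 12.8% of scaffold and 8.13% of chromosome 4 peaks were among the 1000 best-ranked on average. This share was higher on scaffolds in 9 of 9 libraries (exact sign-flip permutation p = 0.00391, adjusted p = 0.0043).

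The share then fell with each step down the ranking. It was 10.05% ± 1.05 (SD, n = 9) at ranks 101 to 1000 and 5.303% ± 0.179 (SD, n = 9) at ranks 1001 to 5000. From rank 5001 to 15508 it was 3.02% ± 0.235 (SD, n = 9). Past rank 15508, where 8 libraries still had peaks, it was 2.26% ± 0.265 (SD, n = 8). From ranks 101 to 1000 onwards the order of the steps was the same in each library. The exception was at the top, where injured library 2 had 9% of ranks 1 to 100 and 10.4% of ranks 101 to 1000.

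**Figure D1:**
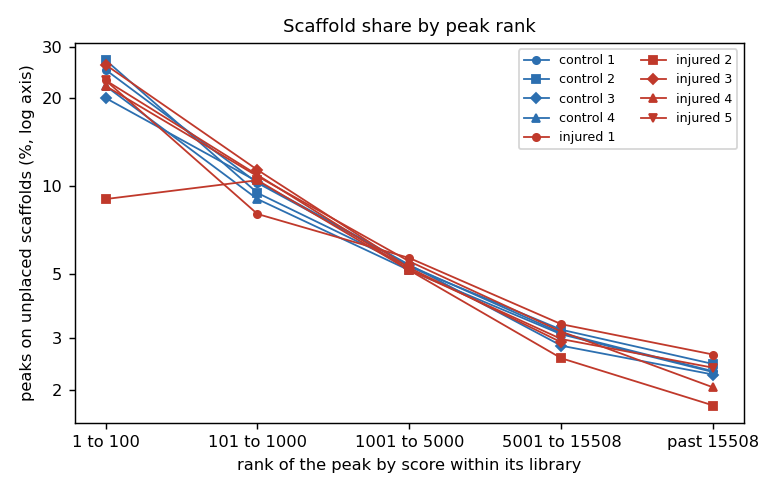
Percentage of peaks on unplaced scaffolds (log axis) in 5 classes of rank, 1 line per library, injured in red and control in blue. The lines run together from 20% to 27% on the left to about 2% on the right, except at ranks 1 to 100 in injured library 2, which has 9%.

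Within each library the median scaffold peak was better ranked than the median peak of chromosomes 1 to 25. Rank percentiles run from 0 (best) to 100. The scaffold medians were 33.8, 35.7, 31.7 and 36.5 in control libraries 1 to 4 and 33.4, 28.7, 29.8, 30.1 and 31.5 in injured libraries 1 to 5. The chromosome medians lay between 49.98 and 50.5, so no scaffold value overlapped a chromosome value. Chromosomes 1 to 25 held 85.3% to 87.6% of the peaks of each list, which sets their median near 50 by construction. The mean difference was -17.9 percentile points (SD 2.78, range -21.5 to -13.7), with the scaffold median better in 9 of 9 libraries. By the exact sign-flip permutation test over libraries p was 0.00391, the smallest it can give, and 0.0043 after adjustment over 11 comparisons of this kind. Scaffold medians were also better than those of chromosome 4, by -5.1 points (range -9.18 to -1.39, 9 of 9 libraries, exact permutation p = 0.00391, adjusted p = 0.0043). Against alternate contigs the difference was -20.4 points (range -23.9 to -15.0, 9 of 9 libraries, exact permutation p = 0.00391, adjusted p = 0.0043).

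Scaffold peaks were also somewhat wider. Their median width was 271 ± 36.7 bp (SD, n = 9), against 237 ± 30.8 bp on chromosomes (SD, n = 9). The difference within a library averaged 33.4 bp and ranged from 20 to 46.5 bp (9 of 9 libraries, exact sign-flip permutation p = 0.00391, adjusted p = 0.0043). Compared only with chromosome peaks of the same rank class, scaffold peaks were 23.2 bp wider on average (range 12.5 to 43.9 bp, 9 of 9 libraries, exact permutation p = 0.00391). Most of this came from the top of the ranking. Median widths, averaged over libraries, were 1012 and 745 bp for scaffold and chromosome peaks down to rank 100. From there to rank 1000 they were 650 and 532 bp. At ranks 1001 to 5000 these averages were 353 and 340.5 bp, at ranks 5001 to 15508 they were 256 and 251 bp, and past that 202 and 200.0 bp. For alternate contigs the average was 1413 ± 770 bp (SD, n = 9) down to rank 100, from 1 to 13 peaks per library. At ranks 101 to 1000 it was 475 bp, and in the later classes it also stayed under the scaffold average. Chromosome 4 by itself was not tested for width. Of the merged scaffold regions, 132 (4.12%) spanned at least 1 kb, against 1.53% of chromosome regions, and the widest spanned 3933 bp. Widths of merged regions also depend on how many libraries have a peak in them.

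More scaffold peaks than chromosome peaks were found again in another library. The share of a library's scaffold peaks lying in a region with a peak of at least 1 other library was 78.9%, 77.1%, 79.9% and 75.4% in control libraries 1 to 4. In injured libraries 1 to 5 it was 74.5%, 87.1%, 84.3%, 81.9% and 86.1%. The mean was 80.6% ± 4.56 (SD, n = 9) on scaffolds and 69.7% ± 4.41 (SD, n = 9) on chromosomes. The difference of 10.8 percentage points (range 6.73 to 14.7) was positive in 9 of 9 libraries (exact sign-flip permutation p = 0.00391, adjusted p = 0.0043). Each library is matched to the others for this value, so the 9 differences are not fully independent.

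Rank moved with this difference. Among peaks of the same rank class the scaffold surplus was 4.32 points (range 0.993 to 7.23, 9 of 9 libraries, exact permutation p = 0.00391), less than the 10.8 points over all ranks. Down to rank 5000 scaffold and chromosome peaks recurred about equally often, with 94.5% ± 2.58 and 94.3% ± 1.61 (SD, n = 9) at ranks 1001 to 5000. Below that the means lay apart, at 80.04% ± 4.08 and 74.3% ± 3.39 (SD, n = 9) from rank 5001 to 15508. Past that rank they were 62.1% ± 4.65 and 53.2% ± 3.28 (SD, n = 8). These lowest classes are wide, so scaffold and chromosome peaks in them can still differ in rank. No single chromosome other than chromosome 4 was compared for this value. Of the sets compared, chromosome 4 came closest to the scaffolds, with 77.0% ± 5.72 of its peaks recurring (SD, n = 9). The difference from it was 3.57 points, with the scaffolds higher in 8 of 9 libraries (exact permutation p = 0.0234, adjusted p = 0.0234) and lower in injured library 3.

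Counted by region, 1704 scaffold regions (53.2%) had a peak in 1 library and 156 (4.87%) in all 9. On chromosomes these shares were 62.7% and 1.48%, on chromosome 4 alone 3.31% of regions were in all 9, and on alternate contigs 0.853%. Scaffolds thus held 2.53% of all regions but 8.24% of the 1893 regions common to the 9 libraries. Per library, 19.8% ± 4.57 of scaffold peaks and 8.35% ± 2.76 of chromosome peaks lay in such common regions (SD, n = 9). Chromosome 4, the only chromosome taken by itself, came close to the scaffolds, with 10.9% to 27.6% of its peaks, against 13.2% to 26.9% on scaffolds. In injured library 3 its share was the higher of the pair. The scaffold and chromosome shares were 1 of the 11 comparisons by sign flips. They are given as a description only, since every library has a peak in the same common regions by definition. Regions of KN scaffolds were common to all libraries in 139 of 2946 cases (4.72%) and those of KZ scaffolds in 17 of 260 (6.54%).

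**Figure D2:**
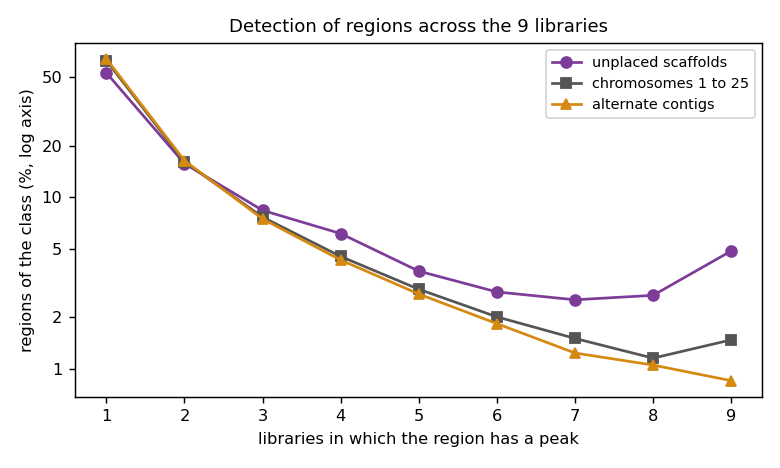
Percentage of regions (log axis) with a peak in 1 to 9 libraries, for unplaced scaffolds, chromosomes 1 to 25 and alternate contigs. The scaffold line lies below the others at 1 library (53.2%) and above them from 3 libraries onwards, and turns up to 4.87% at 9 libraries.

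The 156 common scaffold regions were wide and well ranked. Their median width was 928 bp (270 to 3933 bp), against 203 bp for scaffold regions found in 1 library and 790 bp for common chromosome regions. A merged region spans all its peaks and can only widen as libraries join it. The contrast with regions of 1 library is thus in part set by construction. The median of their mean rank percentiles was 5.12, which is not given here for common chromosome regions. Of the 156, 44 were among the 1000 best-ranked peaks of every library, as were 218 of the 1617 common chromosome regions. The common scaffold regions lay on 91 scaffolds, of which 59 had 1 such region, 20 had 2 and 12 had 3 or more. Across these 156 regions the mean log10 ranks of the injured and the control libraries had a Spearman rho of 0.951. This describes the regions, which are not independent replicates and share their libraries.

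Regions close to a scaffold's first base were more often common. Of 205 scaffold regions that start within the first 1 kb, 24 (11.7%) had a peak in all libraries, against 4.4% of those that start farther in. Neighbouring regions were closer to each other on scaffolds, with a median gap of 2529 bp, than on chromosomes, with 4468 bp. A scaffold's length caps its gaps, and the 163 scaffolds with a single region give none, so that shorter gaps are in part set by construction. Scaffold lengths were not used, so the same could not be asked of the far ends. The last region of a scaffold ended at a median of 16309 bp and at most at 365667 bp.

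The best-ranked common region was on KN150160.1, from 5313 to 8209 (GRCz11 coordinates, as for all positions here). It held rank 6, 9, 6 and 7 in control libraries 1 to 4 and rank 6, 6, 6, 7 and 6 in injured libraries 1 to 5. Its place near the top was thus almost the same in every library. In control library 2 and injured library 3 it was listed as 2 peaks, and the better rank is given. The same scaffold carried another common region from 1500 to 2236, with ranks 14, 36, 24 and 16 in control libraries and 20, 111, 22, 14 and 28 in injured libraries.

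The next best was on KN149723.1, from 1147 to 2695. Its ranks were 27, 3, 1 and 9 in control libraries 1 to 4 and 8, 1, 15, 9 and 47 in injured libraries 1 to 5. It was the peak with the highest score of the whole list in control library 3 and in injured library 2, but its rank varied far more than that of the region on KN150160.1. The region on KN150271.1, from 73 to 2214, had ranks 10, 34, 10 and 14 in control and 16, 88, 18, 13 and 10 in injured libraries. On KN149861.1, from 2063 to 4674, the ranks were 61, 18, 13 and 34 in control and 27, 34, 19, 27 and 11 in injured libraries. For each of these regions the groups overlapped.

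The other 5 of the first 10 common regions, ordered by mean rank percentile, lay on KN149993.1 (16123 to 16913), KN150031.1 (11698 to 12115), KN150242.1 (18929 to 20052), KN150570.1 (39750 to 41426) and KN150187.1 (17421 to 19153). The region on KN149993.1 had ranks 16 to 43 and that on KN150242.1 ranks 23 to 48. Those on KN150031.1, KN150570.1 and KN150187.1 had ranks of 15 to 45 in 8 libraries and 101, 108 and 139 in injured library 2. Of the 10 regions 6 were among the 100 best-ranked peaks in every library, and the remaining 4 fell past rank 100 in injured library 2 alone.

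**Figure D3:**
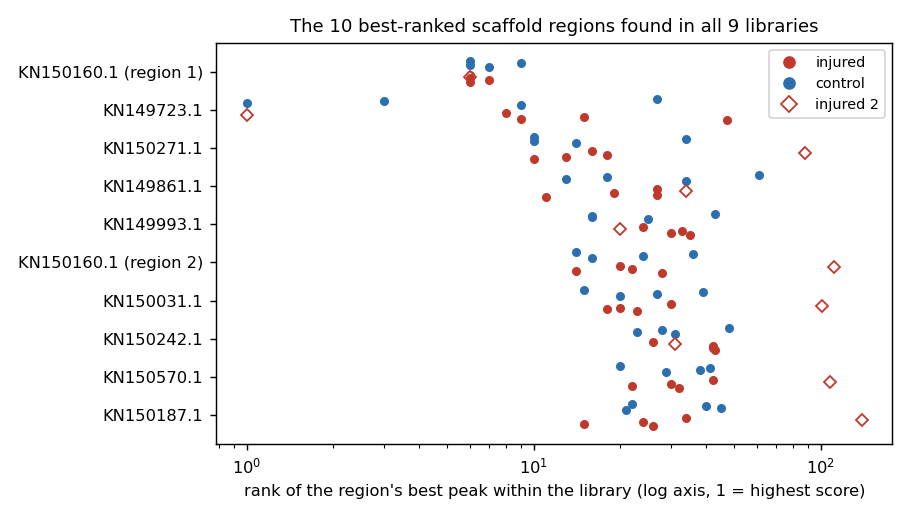
Rank (log axis, 1 is the highest score) of the 10 best-ranked scaffold regions common to all libraries, 1 point per library, injured in red and control in blue, with injured library 2 as an open diamond. The upper region of KN150160.1 stays between ranks 6 and 9, whereas injured library 2 lies apart from the other points in 5 of the 10 regions, at ranks 88 to 139.

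The ranks of common regions were compared between groups by an exact permutation test on log10 rank, adjusted over all 1893 common regions. These ranks were not scaled to list length, and the longer control lists allow worse ranks. On scaffolds 85 were better ranked on average in injured and 71 in control libraries, with a median difference of -0.025 on the log10 scale, against 0.0038 over all 1893. At an unadjusted p below 0.05, 3 scaffold regions were better ranked in injured (1.92% of 156, against 2.27% of all 1893) and 1 in control libraries (0.641%, against 1.27%). These shares are near the background. Adjusted p-values by the exact permutation test passed 0.05 for 0 regions, with a lowest value of 0.954. The smallest p of this test is 0.00794, so a few regions cannot pass over 1893, and the 0 does not show equal ranks.

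These 4 are named although they were chosen after their values were seen. The region better ranked in control libraries lay on KN150219.1 (11221 to 12157), with ranks 1120, 1226, 1450 and 1329 in control and 1885, 1492, 3447, 3086 and 2581 in injured libraries. Its groups did not overlap (exact permutation p = 0.0159, adjusted p = 0.954). On KN150171.1 (74 to 396) the ranks were 5834, 11360, 26297 and 8240 in control and 2676, 2645, 2105, 2749 and 9352 in injured libraries, so that injured library 5 lay among the controls. The remaining pair lay on KN149680.1 (28437 to 29558) and KN149984.1 (29648 to 30236). Each had an exact permutation p of 0.0476 and an adjusted p of 0.954. On KN150171.1 the rank of 26297 in control library 3 exceeds the list length of injured libraries 2 to 5. These lists hold 25718, 15508, 24018 and 17613 peaks. On KN149680.1 the rank of 18409 in control library 3 exceeds the list length of injured libraries 3 and 5. The ranks on KN149984.1 were 1091 to 3567, inside every list. How far list length set these differences was not tested for single regions.

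Fewer scaffold peaks were listed for injured males, but not when the lists were cut to 1 length. Control libraries 1 to 4 had 1030, 1121, 953 and 1316 scaffold peaks. Injured libraries 1 to 5 had 1045, 757, 642, 844 and 690. Only injured library 1 reached into the control range. The means were 1105 ± 157 (SD, n = 4) and 796 ± 159 (SD, n = 5), a ratio of 0.72 (exact two-sided permutation p = 0.0397, adjusted p = 0.0873 over 11 values compared). The call at the unadjusted p was lost without any 1 library other than injured library 1, with p from 0.0536 to 0.0893 over fewer assignments.

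All lists were then cut to their best-ranked 15508 peaks, as many as the shortest one has, which left 658, 660, 624 and 633 scaffold peaks in control libraries 1 to 4. Injured libraries 1 to 5 kept 673, 577, 642, 671 and 640. The means of 644 ± 18.01 (SD, n = 4) and 641 ± 38.8 (SD, n = 5) differed by less than the spread (difference -3.15, exact permutation p = 0.921, adjusted p = 0.921 over 8 values compared). Control lists are longer, and ranks past 15508 hold 329 to 683 scaffold peaks in control libraries and 0 to 372 in injured libraries.

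As a share of the deposited list the direction was the opposite. Scaffold peaks made up 3.26%, 3.26%, 3.16% and 2.91% of peaks in control libraries 1 to 4 and 3.53%, 2.94%, 4.14%, 3.51% and 3.92% in injured libraries 1 to 5. Injured library 2 alone lay in the control range. The difference of 0.461 percentage points did not pass the test (exact permutation p = 0.103, adjusted p = 0.142). Without injured library 2 it was 0.627 (exact permutation p = 0.0286). That library is the only one whose removal separates the groups, which sets p to its smallest value, so this adds no support. Without any other 1 library the difference did not pass (exact permutation p up to 0.214). The shortest list, of injured library 3, had the highest share and the longest, of control library 4, the lowest. At equal length the difference was -0.0203 points (exact permutation p = 0.921).

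**Figure D4:**
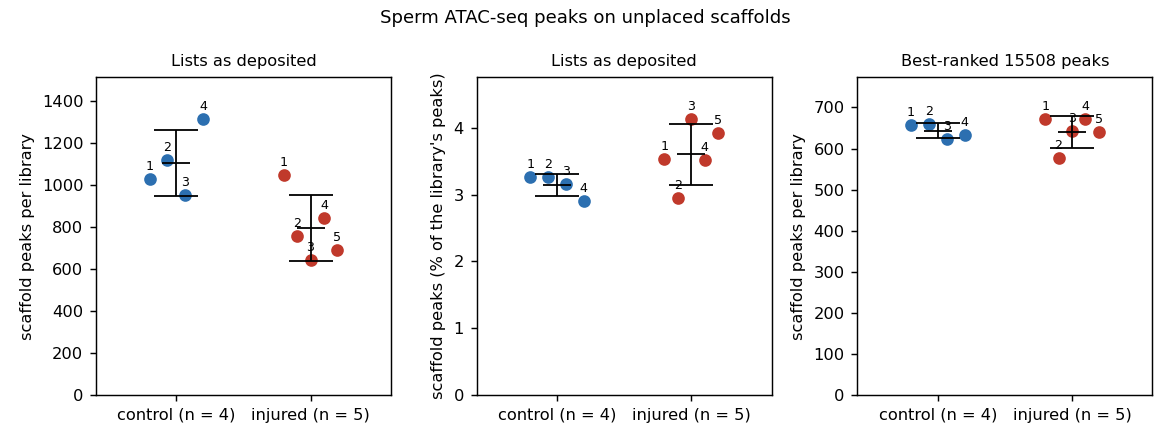
Scaffold peaks per library as a count in the deposited lists (left), as a percentage of the library's peaks (middle) and as a count among the 15508 best-ranked peaks (right). Points are libraries with their replicate number, bars are mean and SD. Control libraries lie mostly higher on the left, mostly lower in the middle and in the same range on the right.

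Scaffold peaks covered 369, 420, 337 and 488 kb in control libraries 1 to 4 and 343, 337, 272, 326 and 274 kb in injured libraries 1 to 5. The ranges touched, since injured libraries 1 and 2 exceeded control library 3. The control mean was 404 ± 66.2 kb (SD, n = 4) and the injured mean 310.3 ± 34.7 kb (SD, n = 5), with an exact permutation p of 0.0238 and an adjusted p of 0.0873. At equal length control libraries had 294 ± 20.4 kb (SD, n = 4) and injured libraries 276 ± 9.35 kb (SD, n = 5), with an exact permutation p of 0.151 and an adjusted p of 0.603. In the deposited lists the unadjusted call was lost without any 1 library other than control library 3, with p from 0.0536 to 0.0857. The number of scaffolds with a peak averaged 412 ± 29.8 in control (SD, n = 4). In injured libraries it was 338 ± 39.4 (SD, n = 5), with an exact permutation p of 0.0317 and an adjusted p of 0.0873. At equal length the averages were 293 ± 11.7 in control (SD, n = 4) and 297 ± 13.5 in injured libraries (SD, n = 5), with an exact permutation p of 0.643.

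Peaks were spread thinly over most scaffolds and densely over a few. Of the 629 scaffolds 163 had a single region, 100 had peaks in 1 library only and 150 had peaks in all libraries. The median was 3 regions per scaffold, and the 8 scaffolds with the most peaks together held 12.4% of all scaffold peaks.

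KN149691.1 had the most. It carried 47 regions between 345 and 226787, of which 13 were common to all libraries. Its peaks numbered 30, 29, 25 and 32 in control and 29, 20, 23, 30 and 23 in injured libraries. KN150342.1 came next, with 27 regions between 148 and 81476, of which 11 (40.7%) were common and 4 were found in 1 library. Its peaks numbered 17, 18, 18 and 19 in control and 24, 19, 16, 14 and 19 in injured libraries, so that its number barely followed the length of the lists. Their median rank percentile was 2.12. As a share of all peaks it averaged 0.0848% in the injured and 0.052% in the control group, with an exact permutation p of 0.0238 (0.678 after adjustment), while at equal length the exact permutation p was 0.81.

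Other scaffolds with many peaks were of a different kind. KN147651.2 had 46 regions between 7888 and 312775, but 0 were common and 27 were found in 1 library. Its peaks numbered 19, 11, 7 and 14 in control and 14, 8, 3, 13 and 5 in injured libraries, with a median rank percentile of 40.1. KN147652.2 had 43 regions with 2 common, KN149684.1 had 35 with 1, KN150171.1 had 34 with 1, KN149685.1 had 28 with 2 and KN149686.1 had 27 with 3.

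**Figure D5:**
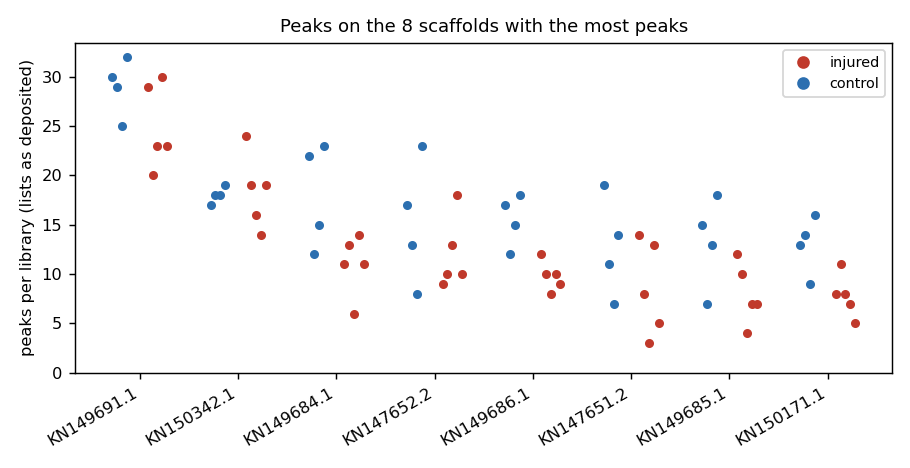
Peaks per library on the 8 scaffolds with the most peaks (lists as deposited), injured in red and control in blue, 1 point per library. KN149691.1 has 20 to 32 peaks and KN150342.1 has 14 to 24, with overlapping groups on each scaffold apart from KN149686.1, where the groups only touch at 12.

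The share of a library's peaks on each sequence was compared by the exact permutation test for the 712 sequences with at least 18 peaks in all, 145 of them scaffolds. At an unadjusted p below 0.05, 12 scaffolds had a higher share in injured libraries (8.28%, against 2.39% of all sequences) and 2 a higher share in control libraries (1.38%, against 4.35%). After adjustment 0 passed by the exact permutation test, with a lowest adjusted p of 0.665. The smallest p of this test is 0.00794, so a few sequences cannot pass over 712, and the 0 does not show equal shares. At equal length 91 scaffolds could be tested. There 0 had a higher share in injured (0%, against 1.27% of all sequences) and 2 in control libraries (2.2%, against 3.56%), and 0 passed after adjustment (exact permutation, lowest adjusted p = 0.446).

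List length entered these shares directly. KN149783.1, KN150014.1 and KZ116062.1 had 2 peaks in each of the 9 libraries, yet each was among the 12, with 0.00942% of the injured and 0.0058% of the control peaks on average (exact permutation p = 0.0238, adjusted p = 0.678). They were singled out after their values were seen. First in order among the 12 was KN150602.1, with 0, 4, 1 and 2 peaks in control and 5, 3, 2, 3 and 3 in injured libraries (exact permutation p = 0.00794, adjusted p = 0.665). At equal length its exact permutation p was 0.111. KN150330.1 and KN150187.1 followed (for each, exact permutation p = 0.0159, adjusted p = 0.665). Both had 2 peaks in every library, apart from 3 in injured libraries 1 and 4 on KN150330.1 and in injured library 1 on KN150187.1. At equal length the exact permutation p was 0.556 for each.

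On the control side came KN150422.1, with 3, 4, 3 and 4 peaks in control and 0, 2, 0, 2 and 1 in injured libraries (exact permutation p = 0.0317, adjusted p = 0.685). KN150341.1 had 4, 4, 3 and 6 against 2, 1, 2, 1 and 1 (exact permutation p = 0.0476, adjusted p = 0.706). In both, the numbers of peaks did not overlap between groups in the deposited lists, but neither did the lengths of these lists. The shares of KN150341.1 did overlap, with 2 of 15508 peaks in injured library 3 above 3 of 30126 in control library 3. Cut to equal length, KN150422.1 had 1, 1, 2 and 2 against 0, 0, 0, 1 and 1 peaks, which overlap. KN150341.1 had 0, 1, 0 and 1 against 2, 0, 2, 0 and 1, so that its direction turned. The third, KZ116067.1, did not pass unadjusted, with 13, 3, 8 and 14 against 4, 7, 2, 3 and 1 peaks (exact permutation p = 0.135, adjusted p = 0.775). At equal length KN149686.1 had 13, 10, 11 and 14 peaks in control and 7, 9, 8, 9 and 9 in injured libraries, without overlap (exact permutation p = 0.00794, adjusted p = 0.446). In the deposited lists its share had an exact permutation p of 0.984.

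Single regions were compared by how many libraries of each group had a peak in them. Of the 3206 scaffold regions 1260 (39.3%) were detected in 2 to 7 libraries and could be tested, against 34.7% of chromosome regions. Among them 315 were more often detected in injured and 945 in control libraries, and on chromosomes 24.0% leaned to the injured side, as did 25% here. At an unadjusted p below 0.05 by Fisher's exact test there were 6 on the injured side (0.476%, against 0.213% of all 44043 regions tested) and 51 on the control side (4.05%, against 4.27%). The groups differ in size, so a region absent from the other group passes with fewer control than injured libraries. The 2 sides are therefore not alike in what can pass. After adjustment over all 44043, Fisher's exact test called 0, with a lowest adjusted p of 0.753. In the equal-length lists 341 scaffold regions leaned to the injured and 495 to the control side. There 40.8% leaned to the injured side, against 38.7% on chromosomes, so the control lean was smaller than in the deposited lists. A lean compares the percentage of 5 injured with that of 4 control libraries. A region found in equally many libraries of both groups thus counts on the control side. Part of the control lean is set by group size at either length, and the share expected without a difference was not computed. The unadjusted counts at equal length were 7 (0.837%, against 0.674% of 23147) and 17 (2.03%, against 2.43%), and again 0 after adjustment. The smallest p that Fisher's exact test can give with these groups is 0.00794. A few regions therefore cannot pass over so many tests, even when exclusive to 1 group, and the 0 does not show equal detection.

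Regions with a peak in all libraries of a group and in 0 of the other group were rare. On scaffolds there was 1 such injured region (0.0312% of 3206, against 0.00473% of all 126838) and there were 7 control regions (0.218%, against 0.121%). At equal length there were 1 (0.0488% of 2051, against 0.012% of 66602) and 2 (0.0975%, against 0.0736%). With so few, the counts carry little precision.

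The injured region lay on KN150240.1, from 5082 to 6331. It had ranks 3140, 1753, 1978, 4636 and 3585 in injured libraries 1 to 5 and no peak in the 4 control lists (Fisher's exact p = 0.00794, adjusted p = 0.753). All 5 ranks lay well inside the equal-length lists, so the result was the same there. It was detected in 5 of 5 and 0 of 4 libraries, the largest difference that the groups allow.

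The next on the injured side were each detected in 5 injured and 1 control library or in 4 and 0 (Fisher's exact p = 0.0476, adjusted p = 0.753). On KN147632.2 (158345 to 159251) the injured ranks were 7905, 6111, 1300, 1538 and 4741, and control library 1 had a peak at rank 2828. On KN150602.1 (13369 to 13855) the injured ranks were 4108, 17922, 8201, 6858 and 3314, and control library 2 had a peak at rank 6302. In both regions the control rank lay among the injured ranks. At equal length the region on KN150602.1 was detected in 4 injured libraries and 1 control library (Fisher's exact p = 0.206). Regions on KN150227.1 (30699 to 31204) and KN150252.1 (41035 to 41556) had no peak in injured library 2 or in any control library. At equal length these were detected in 3 and 2 injured libraries (Fisher's exact p = 0.167 and 0.444).

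Among the 7 control regions the first lay on KN150671.1, from 113 to 490. It had ranks 1287, 2665, 6514 and 9413 in control libraries 1 to 4 and no peak in the 5 injured lists (Fisher's exact p = 0.00794, adjusted p = 0.753), also at equal length. KN150060.1 (15837 to 16266) had ranks 5230, 4289, 17089 and 2488, and KN150452.1 (6460 to 7085) had 7094, 3308, 29902 and 5518. Both kept 3 of 4 control peaks at equal length. KN150326.1 (20888 to 21238) and KN149694.1 (60188 to 60485) kept 2 of 4. The remaining 2, on KZ116064.1 (62853 to 63320) and KN150137.1 (6408 to 6852), kept 1 and 0, since their control ranks of 8331 to 38908 lie mostly past the length of the shortest list.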

How the data were processed

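The authors deposited 1 peak list per library, with positions and a score per peak in whole numbers from 13 upwards, whose scale is not given in the sources used here. Per the submitters' processing notes, the build was GRCz11 and the tools included Bowtie2, MACS2, Picard, SAMtools, Trim Galore and bedtools, besides ChIPseeker, DESeq2, DiffBind and deepTools. Versions, settings, any shift for the transposase and the handling of duplicates and of reads mapping to several places were likewise not given in the sources used here. Sequences with copies elsewhere can gain or lose reads by that handling, which was not tested. Per the labels' protocols, reads were 100 bp paired-end, with 4.6 to 29 M retained per library.

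Peaks were ranked by score, ties by width and then position, with Python 3.11.15, pandas 2.3.3, numpy 2.4.6 and scipy 1.17.1. Peaks overlapping by 1 bp were merged. Groups were compared by the exact permutation test over 126 assignments (smallest p 0.00794), scaffolds with other sequences by exact sign flips over 9 libraries, and regions by Fisher's exact test. Adjustment followed Benjamini and Hochberg.

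Named were the first 10 common regions by mean rank percentile, 5 regions per direction, the 8 scaffolds with most peaks and 3 scaffolds per direction. Members and tests were chosen with earlier results of these data known. Rank classes, the tests on log10 rank, gaps and positions were added later.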

Additional observations from a re-analysis of the deposited data

Results flagged for a closer look

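Within groups of 4 or 5 libraries, a value was singled out when its gap to the nearest other took up more of the group's range than Dixon's test allows at the 95% level. This was examined in 104 groups of values, where chance alone gives about 1 in 20, or 5.2. There were 11 such cases, several of them on the same peaks. Injured library 2 accounts for most: it had 9 scaffold peaks among its 100 best-ranked (9%), against 22 to 26 in the other injured libraries. It also had 13 peaks on alternate contigs there, against 1 to 5 in the other 8 libraries. Its ranks were 88 on KN150271.1, 111 at the second region of KN150160.1, 101 on KN150031.1, 108 on KN150570.1 and 139 on KN150187.1, where the other injured libraries had ranks of 10 to 42.

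This was not particular to scaffolds. Of the 44 scaffold regions among the 1000 best-ranked of every library, 24 had their worst rank in injured library 2, as did 122 of 218 such chromosome regions.

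Injured library 1 had peaks on 405 scaffolds, against 307 to 335 in the other injured libraries, and 8% scaffold peaks at ranks 101 to 1000, against 10.4% to 11.3%. On KN150271.1 control library 2 had rank 34, against 10 to 14 in the other controls. At the first region of KN150160.1 injured library 4 had rank 7, against 6 in the other 4.

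The gap in median rank percentile between scaffold and chromosome peaks differed between groups at the unadjusted level. In injured libraries it was -19.7 ± 1.88 (SD, n = 5). In control libraries it was -15.8 ± 2.18 (SD, n = 4). The difference was -3.88 points, with an exact permutation p of 0.0317 and an adjusted p of 0.139 over 5 such gaps. Control lists were also longer. At equal length the scaffold medians themselves averaged 31.0 ± 2.02 (SD, n = 5) for injured males and 32.4 ± 1.76 (SD, n = 4) for controls, with an exact permutation p of 0.302.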

How the results depend on the processing

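The differences between scaffold and chromosome peaks kept their direction and call in equal-length lists, in the better-ranked 50%, without any 1 library, and where tried within rank classes, with peaks up to 100 bp apart merged or without alternate contigs. Without 1 library recurrence differed by 10.8 to 12.2 points, rank by -18.5 to -17.5 points and width by 31.8 to 35.1 bp.

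Differences between groups were -3.15 peaks, -0.0203 percentage points and -17.3 kb at equal length. In the better-ranked 50% of each list, which keeps the lists unequal in length, they were -167 peaks (exact permutation p = 0.0317), 0.854 points (p = 0.0714) and -63.0 kb (p = 0.0238). The share was reversed among the 100 best-ranked peaks (-2.9 points, exact permutation p = 0.635), where injured library 2 had 9 scaffold peaks and the other injured libraries 22 to 26, and was 0.195 points among the 1000 best-ranked. Without 1 library the differences ranged from -372 to -239 peaks, from 0.328 to 0.627 points and from -115 to -64.9 kb. With a replicate block of equally numbered libraries they were -283 peaks (exact permutation p = 0.25) and -84.1 kb (p = 0.125, the smallest that 4 pairs allow). The numbers did not pair the libraries (correlations -0.0504 to 0.0265, and for 1 of 4 numbers the library was nearest to its namesake).

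Unadjusted counts moved, and those after adjustment stayed 0. Given the smallest p that these groups allow, a few members cannot pass over so many tests in any setting. The 0 is therefore no sign of stability. Regions at Fisher's exact p below 0.05 were 57 in the deposited lists, 24 at equal length, 31 in the better-ranked 50% and 9 to 18 without 1 library. Group-exclusive regions were 8, 3, 3 and 9 to 18. Without 1 library, Fisher's exact p can be below 0.05 only for such regions, so both ranges of 9 to 18 are the same counts. Scaffolds at an unadjusted exact permutation p below 0.05 for their share were 14, 2, 9 and 3 to 12, and 1 with at least 90 peaks. Common scaffold regions at such a p for their rank were 4, 2, 2 and 1 to 7, and 13 by rank percentile. Percentiles divide ranks by list length, which differed between groups without overlap. The direction of the 13 and the count over all 1893 common regions are not given here. Shares over all regions or sequences stand above for the deposited lists and, apart from ranks, at equal length. The other counts have no background here. With fewer libraries p moves in coarser steps.

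For single scaffolds the share difference (in percentage points) was reversed at equal length on KN149691.1 (-0.00322) and KN149686.1 (-0.0232). In the better-ranked 50% it was reversed on KN149686.1 (-0.00224) and KN150171.1 (0.0123), and without alternate contigs on KN149686.1 (-0.000321). Without 1 library it ranged across 0 on KN149684.1 (-0.00731 to 0.00425), KN149686.1 (-0.00303 to 0.00325), KN147651.2 (-0.00504 to 0.00732), KN149685.1 (-0.00864 to 0.000387) and KN150171.1 (-0.00494 to 0.0012). None of these 5 passed the test in the deposited lists. The cause was not tested.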
